A study of Mus musculus with 10 samples.

Results

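The genes described here encode the proteins of the cytosolic ribosome. They were chosen by symbol (Rpl or Rps followed by a number, with an a, x, l or l1 ending allowed, together with Rplp0, Rplp1, Rplp2 and Rpsa), which gave 83 genes and 102 transcript rows out of 24394 symbols and 66548 rows. Of the 83, 32 encode proteins of the small subunit, 48 proteins of the large subunit and 3 the stalk of the large subunit. The libraries were made from whole lung of female BALB/c mice aged 8 weeks at the start, a strain that mounts a strong allergic response. Saline mice (n = 3) received saline without ovalbumin. OVA mice (n = 3) were sensitised to ovalbumin and challenged with it through the airways, an acute model of allergic asthma. Herb mice (n = 4) received the same ovalbumin course and, in addition, an ethanol extract of Descurainia sophia seeds, so that Herb and OVA differ by the extract and both differ from Saline by ovalbumin. Each library is 1 mouse, and p-values measure the spread between these mice.

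The ribosome reads mRNA in its small subunit and joins amino acids in its large subunit. Its proteins are needed in near equal amounts, and their mRNAs are short, abundant and commonly begin with a run of pyrimidines through which growth signals set their translation. Most mammalian ribosomal protein genes have processed copies, intronless DNA copies of the mRNA, elsewhere in the genome, and a read from the gene can match such a copy as well.

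Values were FPKM, fragments scaled by transcript length and by the mapped fragments of the library, as the authors deposited them. The depth behind the libraries was estimated from the smallest steps in the values as 14900000 to 29500000 fragments. The steps fitted weakly (score 0.142 to 0.245, where 1 is a perfect fit). Multiples of a depth fit as well, so the lowest clear peak was taken and the estimate is rough. Computed from FPKM and transcript length, without this depth, protein-coding RefSeq rows held 33.0% to 33.3% of the fragments in Saline, 11.9% to 14.9% in OVA and 19.3% to 25.8% in Herb. FPKM of most genes was lower in OVA. Each comparison is therefore given on the deposited scale and after every library was rescaled to the same 75th percentile of its gene values. All 7 lung markers searched were detected and all 7 were lower in OVA than in Saline (median log2 difference -2.45). Of 6 eosinophil markers in the table, the 3 that were tested (Ear1, Ear2 and Siglecf) were lower as well. The other 3 (Prg2, Epx and Ccr3) were under the filter of 1 FPKM and not tested, and their OVA values lay above all Saline values, as for Prg2, an eosinophil granule protein, at 0, 0 and 0 FPKM in Saline and 1.25, 1.65 and 0.876 in OVA. The 4 erythroid markers in the table summed to 5731 to 6965 FPKM in Saline, 30.9 to 561 in OVA and 1075 to 1582 in Herb. The part of these differences in the results for ribosomal protein genes was not tested. In whole lung, fewer cells of a type and less RNA per cell cannot be told apart.

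Ribosomal protein genes took a smaller share of the protein-coding signal in OVA lungs than in either other group. The 83 genes together made up 5.20%, 6.07% and 5.26% of the summed FPKM of protein-coding rows in the 3 Saline mice. The share was 2.67%, 3.26% and 2.74% in the 3 OVA mice and 4.19%, 3.99%, 3.46% and 4.56% in the 4 Herb mice. The 3 groups did not overlap, and Herb lay between the other two. The means were 5.51% ± 0.49 (SD, n = 3), 2.89% ± 0.32 (SD, n = 3) and 4.05% ± 0.46 (SD, n = 4), a ratio of 0.525 for OVA to Saline, 1.40 for Herb to OVA and 0.736 for Herb to Saline. Multiplying all values of a library by 1 factor leaves this share as it is. The 77 genes of mitochondrial ribosomal proteins, which serve the separate ribosome of the mitochondrion, gave shares that overlapped between groups, at 0.300% to 0.327% in Saline, 0.302% to 0.356% in OVA and 0.291% to 0.345% in Herb.

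**Figure D1:**
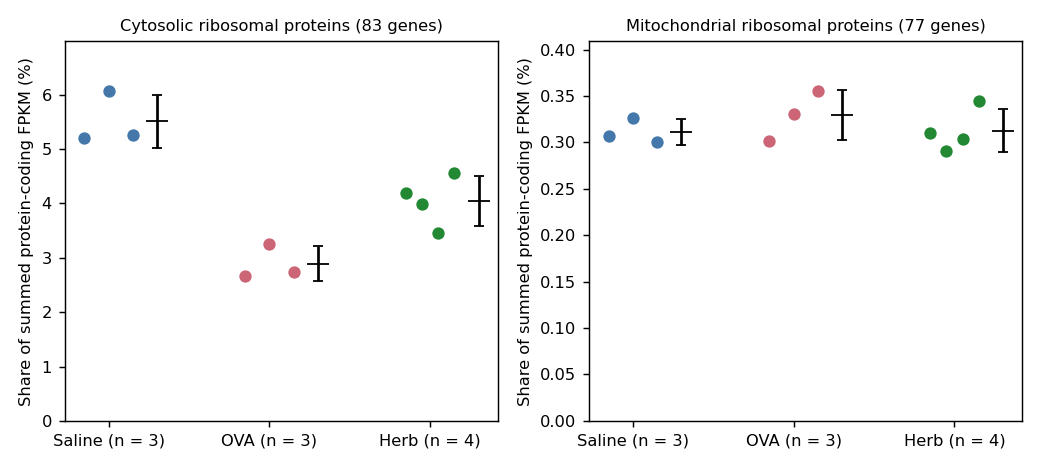
Share of summed protein-coding FPKM (percent, vertical axis) held by the 83 cytosolic ribosomal protein genes and by the 77 mitochondrial ribosomal protein genes, with 1 point per library and, beside each group, its mean ± SD. Cytosolic shares separate into Saline (5.20% to 6.07%), Herb (3.46% to 4.56%) and OVA (2.67% to 3.26%), while mitochondrial shares overlap.

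As sums of FPKM, the 83 genes reached 6930, 8958 and 7180 in Saline, 1046, 1730 and 1422 in OVA, and 3795, 3933, 2564 and 3930 in Herb. The sum over small subunit genes divided by the sum over large subunit genes, stalk included, was 1.03, 0.876 and 1.05 in Saline, 0.755, 0.733 and 0.778 in OVA, and 0.968, 1.05, 0.763 and 0.858 in Herb. The OVA ratios were below all Saline ratios. The Herb ratios overlapped Saline, and they overlapped OVA only through replicate 3 (0.763). The sums leave out Rps27rt, a retrocopy of Rps27 that the choice by symbol does not take in. In Herb replicate 3 and Saline replicate 2, Rps27 was low (1.51 and 3.62 FPKM) and Rps27rt high (76.99 and 1200). The part of this in the ratios was not tested.

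Not every member had a usable level. Of the 83 genes, 56 were above 0 in every library, 23 were listed at 0 in some libraries and 4 (Rpl10l, Rpl17, Rpl23a and Rpl39l) were listed at 0 in all 10. Rpl17 and Rpl23a are large subunit proteins that every cell needs, so a listed 0 is not evidence that a gene was silent. Values at 0 made up 30 of 249 gene values in Saline (12%), 49 of 249 in OVA (19.7%) and 51 of 332 in Herb (15.4%). Tests used the 73 members with a mean of at least 1 FPKM over the 10 libraries, fitted with all 11205 genes that passed the same filter. The 10 members not tested were Rpl10l, Rpl17, Rpl21, Rpl23a, Rpl29, Rpl35a, Rpl39l, Rpl3l, Rpl41 and Rpsa. Among the 83, 72 had 1 transcript row and 11 had more, up to 5, which were summed for each gene.

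In OVA vs. Saline, 59 of the 73 tested members were lower and 1 was higher (limma, Benjamini-Hochberg adjusted over all genes tested), where 57.9% of all genes tested were lower and 3.28% higher. The members' median log2 difference was -2.31, against -0.75 for all genes. The difference was negative for 72 of the 73, and 60 did not overlap between the groups and were lower, where 63.0% of all genes did so. After rescaling to the 75th percentile the median of all genes moved to 0.07, and 1922 genes were lower and 2695 higher. On that scale 45 members were lower and 2 (Rpl3 and Rps2) were higher, with a median of -1.31, where 17.2% of all genes were lower. Quantile normalization gave 28 members lower and 4 higher, where 1917 of all 11205 genes were lower and 2087 higher. By subunit, 25 of 31 small subunit genes, 31 of 39 large subunit genes and 3 of 3 stalk genes were lower on the deposited scale, with medians of -2.35, -2.34 and -1.74. Of the 56 members above 0 in every library, 51 were lower and none was higher.

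Most members are abundant, so they were also set beside other abundant genes. Among genes with a mean of at least 20 FPKM, 50 of 56 members (89.3%) and 406 of 464 other genes (87.5%) were lower on the deposited scale, with medians of -2.48 and -1.97. After rescaling these were 40 members (71.4%) and 266 other genes (57.3%), with medians of -1.39 and -0.87. The share of members called was thus near that of other genes at the same level on the deposited scale.

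In Herb vs. OVA, 51 of the 73 members were higher and none was lower, where 44.0% of all genes tested were higher and 0.446% lower. The median log2 difference was 1.28, against 0.48 for all genes. Of these 73, 48 did not overlap between the groups and were higher, where 49.6% of all genes did so. After rescaling no member passed the adjusted threshold in limma, and 0.348% of all genes were higher. On that scale the members' median was 0.65, against 0.01 for all genes. All 51 members that were higher on the deposited scale came from the 56 above 0 in every library, and none of the 17 with a listed 0 passed. Among genes with a mean of at least 20 FPKM, 78.6% of members and 77.4% of other genes were higher on the deposited scale. After rescaling the medians of these abundant genes were 0.66 for members and 0.48 for other genes.

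In Herb vs. Saline, 35 members were lower and 1 (Rps2) was higher, where 22.7% of all genes tested were lower and 3.32% higher. Their median log2 difference was -1.06, against -0.27 for all genes. Of the 73, 51 did not overlap and were lower, where 36.6% of all genes did so. After rescaling 14 members were lower and 1 was higher, with a median of -0.61, where 5.11% of all genes were lower. Among genes with a mean of at least 20 FPKM, 51.8% of members and 46.6% of other genes were lower as deposited, and 23.2% and 20.7% after rescaling. With a common protein-coding sum the split was 12 lower and 2 higher, where 320 of all 11205 genes were lower and 2065 higher. With quantile normalization it was 8 lower and 2 higher, where 382 of all genes were lower and 459 higher. For gene sums, the count of members lower in this comparison rested on single libraries more than in the others. Leaving out 1 Saline library reduced it to 17 (without replicate 1), 11 (without replicate 2) or 14 (without replicate 3). Without Herb replicate 3 or 4 it was 18 or 23. Counts over all genes in these fits are not given here, so a loss particular to the members cannot be read from them.

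Tested as single transcript rows, 61 of 81 member rows were lower in OVA vs. Saline, where 41.1% of all rows were lower. In Herb vs. OVA 51 rows were higher, where 31.7% of all rows were higher, and leaving out OVA replicate 1 reduced this count to 2. In Herb vs. Saline 18 rows were lower, where 6.26% of all rows were lower, and this count was 1 without Saline replicate 2. Counts over all rows with a library left out are not given here. The comparisons share libraries, so they are not independent of one another.

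**Figure D2:**
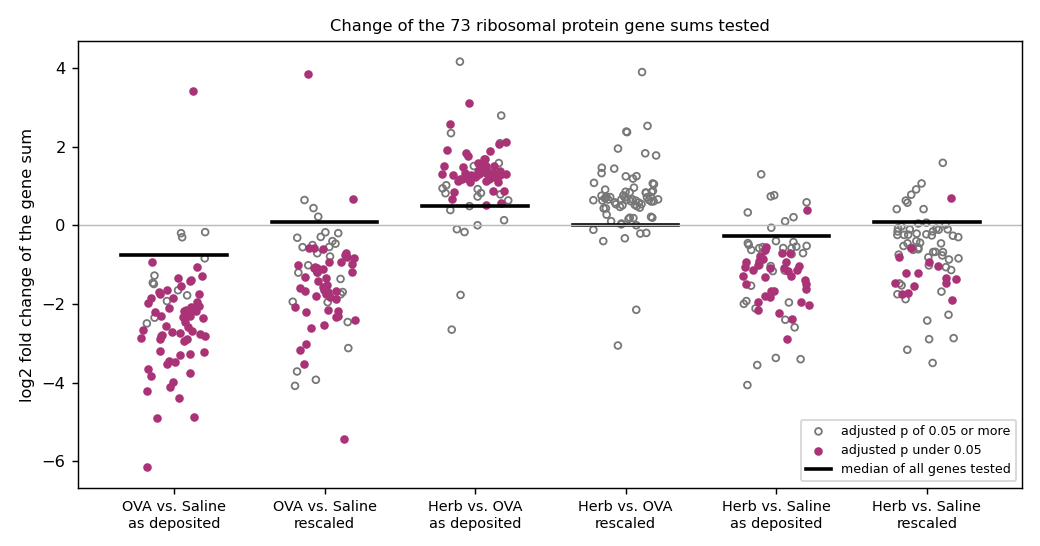
Log2 fold change of each of the 73 tested members (vertical axis) in the 3 comparisons, as deposited and after rescaling to a common 75th percentile, where each point is 1 gene sum, filled where adjusted p is under 0.05, and a black line is the median of all genes tested. Most members lie below that line in OVA vs. Saline (member median -2.31 as deposited, -1.31 rescaled) and above it in Herb vs. OVA (1.28 and 0.65, with no filled point after rescaling).

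A few libraries were the extreme ones for most genes. Among the 56 members above 0 throughout, Saline replicate 2 was the highest of the 10 libraries for 45 and OVA replicate 1 the lowest for 45, and Herb replicate 3 was the lowest of its group for 48. The highest Herb library varied more, being replicate 2 for 24 genes, replicate 4 for 22 and replicate 1 for 10. Group means ran OVA, Herb, Saline from low to high for 51 of these genes and OVA, Saline, Herb for the other 5. The median coefficient of variation between mice was 16.7% in Saline, 33.1% in OVA and 21.5% in Herb.

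**Figure D3:**
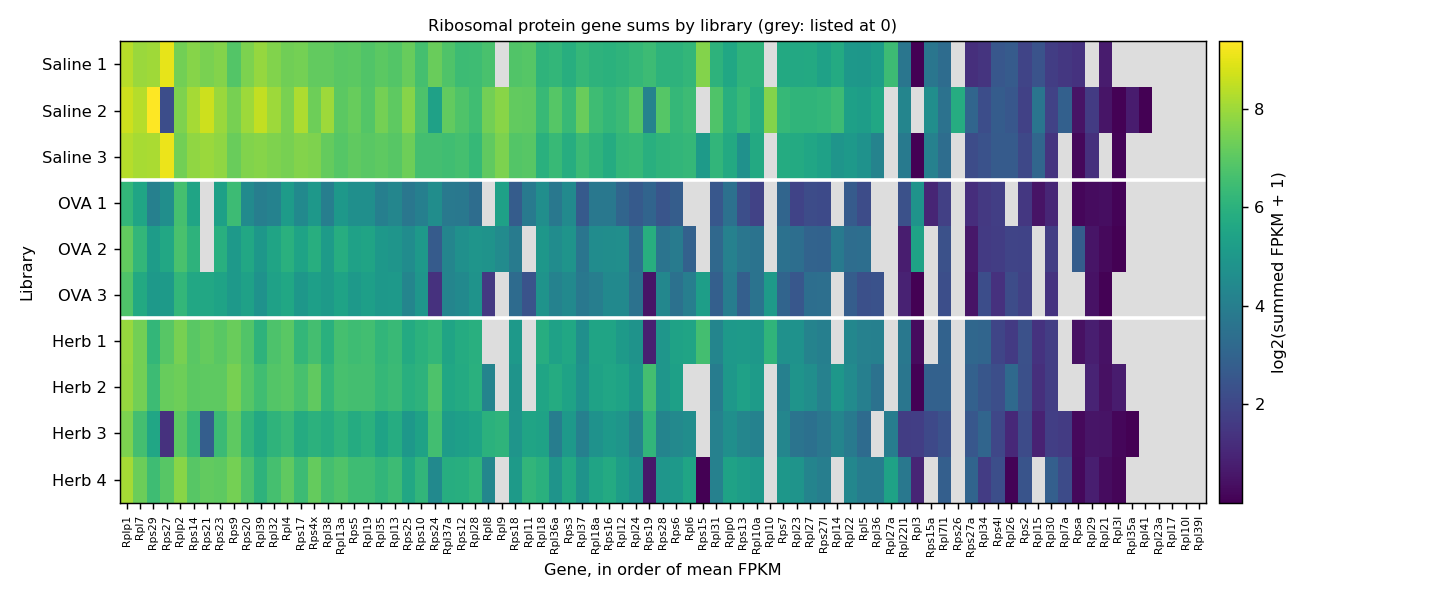
Summed FPKM of 81 of the 83 members (columns, in order of mean FPKM) in the 10 libraries (rows), coloured as log2(FPKM + 1), with grey for a value listed at 0. The OVA rows are darkest, and the grey cells, 29 in Saline, 48 in OVA and 51 in Herb, gather among genes of low mean but also break single columns such as Rpl9 and Rpl10.

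Among the small subunit genes, Rps29, a small zinc-binding protein, was measured at 263, 659 and 287 FPKM in Saline, 16.02, 34.9 and 32.3 in OVA and 72.2, 84.5, 45.3 and 86.3 in Herb. The 3 groups did not overlap, with Saline replicate 2 far above its group. The log2 difference was -3.76 ± 0.43 (SE, adjusted p = 0.000164) in OVA vs. Saline, and 1.38 ± 0.40 (adjusted p = 0.023) in Herb vs. OVA, which was 0.71 with an adjusted p of 0.235 after rescaling.

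Rps21, a short protein of the small subunit, had listed values of 176, 402 and 250 FPKM in Saline. In OVA they were 0, 0 and 48.2, and in Herb 142, 132, 5.997 and 138. Every Saline library lay above every OVA library, and the Herb values overlapped OVA through replicate 3. Its fitted difference in OVA vs. Saline passed the test (adjusted p = 0.00879), and its size rests on the pseudocount because OVA values were listed at 0. Rps4x, the X-linked form of the protein S4, measured 138, 158 and 189 FPKM in Saline, 30.6, 57.2 and 38.1 in OVA and 94.7, 136, 63.1 and 140 in Herb, and fell by 1.95 ± 0.34 on the log2 scale in OVA vs. Saline (SE, adjusted p = 0.000955) and by 0.81 after rescaling (adjusted p = 0.0403). Rps4l, named after it but a non-coding row in this annotation, was low, at 4.87, 5.66 and 5.44 FPKM in Saline, 2.32, 2.26 and 1.55 in OVA and 2.85, 3.74, 3.02 and 3.76 in Herb.

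Rps27a, made as a fusion of ubiquitin and the ribosomal protein, stayed low at 1.43, 7.31 and 3.48 FPKM in Saline, 1.34, 0.526 and 0.4002 in OVA and 7.85, 6.57, 4.80 and 7.004 in Herb. It was 1.39 ± 0.40 lower on the log2 scale in OVA vs. Saline (SE, adjusted p = 0.0135), and 0.71 lower after rescaling, where the call was lost (adjusted p = 0.183). Every Herb value exceeded every OVA value, with a log2 difference of 2.13 ± 0.37 (SE, adjusted p = 0.00716) that was 1.78 after rescaling (adjusted p = 0.0645).

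Rps2, which lines the path of mRNA into the ribosome, was the member called higher in Herb vs. Saline. Its levels were 2.78, 2.49 and 3.09 FPKM in Saline, 1.90, 2.65 and 2.55 in OVA and 4.06, 3.86, 3.37 and 4.43 in Herb. Herb lay above both other groups without overlap. The log2 difference in OVA vs. Saline was -0.17 (adjusted p = 0.278) as deposited and 0.66 (adjusted p = 0.00235) after rescaling. In Herb vs. OVA it was 0.55 (adjusted p = 0.00929), falling to 0.04 after rescaling and turning to -0.10 with a common protein-coding sum. In Herb vs. Saline it was 0.38 (adjusted p = 0.0498), a call that was lost without any one of the 3 Saline or 4 Herb libraries and without OVA replicate 2 or 3, with adjusted p from 0.056 to 0.151. After rescaling this difference was 0.71 (adjusted p = 0.0118), and with a common protein-coding sum 0.83 (adjusted p = 0.00677). The level of Rps2 was far below that of most members, and it has 23 near-identical copies in the annotation.

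Rps24, a small subunit protein needed for maturation of the 18S rRNA, was a candidate the study chose on these libraries, so its direction here is not independent evidence. Its 3 transcript rows share their central coding exons and differ near the 3′ end of the coding sequence, where short exons carry or move the stop codon. The gene lies at chr14:24487125-24496959 on the plus strand of GRCm38.p6. The exons that separate the rows are printed 5′ to 3′ with the stop codon that ends the row's coding sequence in capitals:
NM_011297, exon of 20 bases, chr14:24495430-24495449: TGAgtggagattggatacag
NM_207635, exon of 18 bases, chr14:24494052-24494069: aaaTGAaatacctagcag

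NM_207635 also carries the exon of 20 bases, downstream of its own stop codon, while NM_207634 carries neither and ends in a long last exon of 1185 bases. The coding sequences were 393, 396 and 402 bases for NM_011297, NM_207635 and NM_207634, and NM_011297 and NM_207635 shared 507 bases of sequence. How StringTie divided reads between rows so alike was not tested.

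NM_011297 was at 49.2, 25.5 and 79.0 FPKM in Saline, 0, 4.68 and 0.801 in OVA and 33.9, 22.5, 18.7 and 9.02 in Herb. NM_207635 was at 48.1, 13.0 and 8.80 FPKM in Saline, 1.08, 0.790 and 0.261 in OVA and 26.3, 13.4, 1.43 and 8.93 in Herb. For both rows every Saline and every Herb value lay above every OVA value. NM_207634 spread more, at 50.9, 1.90 and 6.29 FPKM in Saline, 21.8, 0 and 0.483 in OVA and 12.6, 71.5, 71.5 and 2.76 in Herb, and its groups overlapped. In OVA vs. Saline the row differences were -4.45 ± 0.68 (SE, limma adjusted p = 0.00113) for NM_011297, -3.50 ± 0.85 (adjusted p = 0.00908) for NM_207635 and -1.67 ± 1.57 (adjusted p = 0.418) for NM_207634. In Herb vs. OVA the same rows differed by 3.21 ± 0.64 (adjusted p = 0.0153), 2.56 ± 0.79 (adjusted p = 0.0366) and 2.82 ± 1.47 (adjusted p = 0.165). After rescaling, the calls of NM_011297 and NM_207635 held in OVA vs. Saline (adjusted p = 0.00634 and 0.0336) and were lost in Herb vs. OVA (adjusted p = 0.0869 and 0.141).

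The sum of the 3 rows was 148, 40.4 and 94.1 FPKM in Saline, 22.9, 5.47 and 1.54 in OVA and 72.8, 108, 91.6 and 20.7 in Herb. The OVA values lay below all Saline values and overlapped with Herb replicate 4. The log2 difference of the sum was -3.52 ± 0.88 (SE, adjusted p = 0.00677) in OVA vs. Saline and 3.11 ± 0.82 (adjusted p = 0.0158) in Herb vs. OVA, the highest difference called among the members in that comparison. After rescaling these were -2.46 (adjusted p = 0.062) and 2.53 (adjusted p = 0.117). Without OVA replicate 3 the Herb vs. OVA difference was 2.35 (adjusted p = 0.051). In Herb vs. Saline it was -0.40 (adjusted p = 0.746), turning to 0.07 after rescaling.

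**Figure D4:**
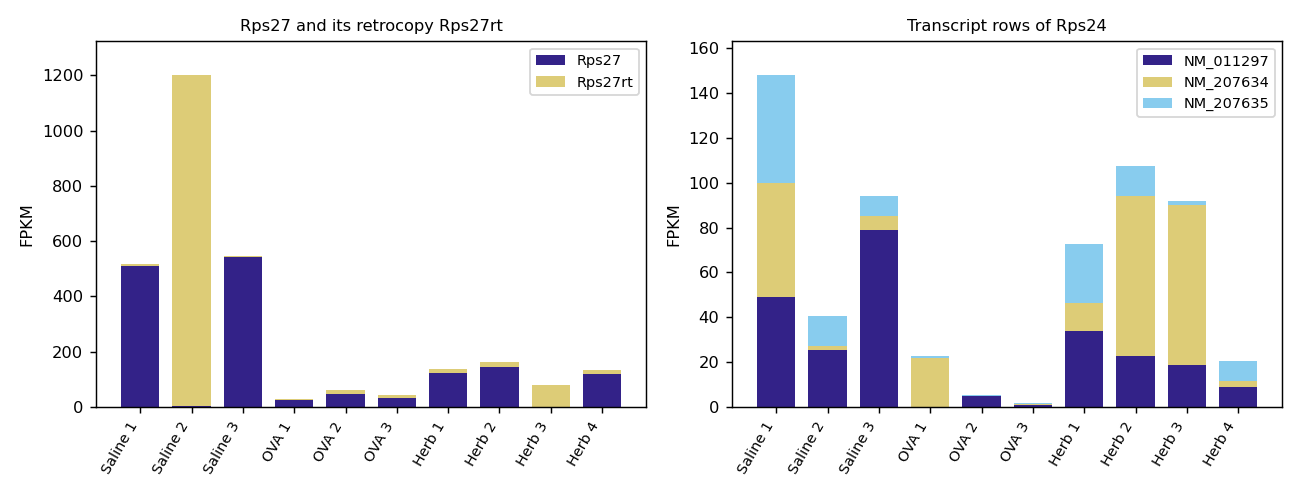
Stacked bars of FPKM (vertical axis) in each of the 10 libraries for Rps27 and its retrocopy Rps27rt on the left and for the 3 rows of Rps24 on the right. Rps27rt makes up nearly the whole bar in Saline replicate 2 (1200) and Herb replicate 3 (76.99), and in OVA the Rps24 rows are at 4.68 or below except NM_207634 in OVA replicate 1, at 21.8.

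Rps27, a zinc-binding protein of the small subunit, has a copy with the same coding sequence. The gene lies on chromosome 3 and a retrocopy, Rps27rt, on chromosome 9, and their coding sequences of 255 bases were identical. Rps27 was at 512, 3.62 and 543 FPKM in Saline, 23.7, 48.0 and 33.3 in OVA and 122, 146, 1.51 and 121 in Herb. Rps27rt was at 7.40, 1200 and 4.95 in Saline, 4.92, 11.6 and 10.6 in OVA and 14.4, 17.5, 76.99 and 13.0 in Herb. In Saline replicate 2 and Herb replicate 3 the parent was low and the retrocopy high. Added together the pair gave 519, 1203 and 547 FPKM in Saline, 28.6, 59.6 and 44.0 in OVA and 137, 163, 78.5 and 134 in Herb, with no overlap between the groups. Taken alone, Rps27 passed in no comparison (log2 difference -1.65 ± 2.03, SE, adjusted p = 0.504, in OVA vs. Saline, and 0.49 ± 1.90, adjusted p = 0.851, in Herb vs. OVA, a sign that turns to -0.19 after rescaling). Its paralog Rps27l, 76.1% identical in coding sequence, was at 39.7, 73.3 and 40.003 FPKM in Saline, 3.29, 6.80 and 9.82 in OVA and 15.3, 16.5, 12.2 and 14.98 in Herb, and fell by 2.81 ± 0.35 (SE) on the log2 scale in OVA vs. Saline (adjusted p = 0.000196), a difference of -1.74 after rescaling (adjusted p = 0.00351).

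Among the large subunit genes, Rpl7 had 250, 321 and 280 FPKM in Saline, 44.6, 72.997 and 51.1 in OVA and 165, 165, 93.7 and 153 in Herb. The 3 groups did not overlap. It fell by 2.34 ± 0.27 (SE) on the log2 scale in OVA vs. Saline (adjusted p = 0.000168), and by 1.19 after rescaling (adjusted p = 0.00223). It was 1.34 ± 0.26 higher in Herb vs. OVA (adjusted p = 0.00716), and 0.66 after rescaling (adjusted p = 0.0791). Its relative Rpl7l1, 52.8% identical in coding sequence, was at 9.05, 10.5 and 9.30 FPKM in Saline, 2.41, 4.002 and 3.75 in OVA and 6.79, 6.59, 4.16 and 6.08 in Herb. Its fall of 1.29 ± 0.20 (SE) in OVA vs. Saline (adjusted p = 0.000486) was 0.32 after rescaling (adjusted p = 0.0986) and turned to 0.01 higher with a common protein-coding sum.

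Rpl39, with 156 bases the shortest coding sequence among members above 0 throughout, was at 235, 359 and 204 FPKM in Saline, 15.04, 29.8 and 26.4 in OVA and 65.7, 88.2, 49.3 and 65.6 in Herb. No groups overlapped, and the log2 differences were -3.44 ± 0.32 (SE, adjusted p = 0.000149) in OVA vs. Saline, 1.49 ± 0.30 (adjusted p = 0.00768) in Herb vs. OVA, which lost its call after rescaling (0.83, adjusted p = 0.0841), and -1.95 ± 0.30 (adjusted p = 0.00802) in Herb vs. Saline. Its testis-type paralog Rpl39l was listed at 0 in all libraries, and so was Rpl10l, the testis-type paralog of Rpl10. Rpl22 was at 31.0, 39.4 and 31.6 FPKM in Saline, 5.42, 9.22 and 5.75 in OVA and 19.3, 21.8, 13.3 and 19.3 in Herb, and fell by 2.19 ± 0.23 (SE) in OVA vs. Saline (adjusted p = 0.000149), a difference of -1.12 after rescaling (adjusted p = 0.00172). Its paralog Rpl22l1 was at 11.6, 18.1 and 13.1 in Saline, 3.99, 0.678 and 0.861 in OVA and 12.5, 11.7, 2.25 and 12.5 in Herb, with a log2 difference of -2.59 ± 0.60 (SE, adjusted p = 0.00449) in OVA vs. Saline, which was -1.70 with an adjusted p of 0.0553 after rescaling.

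Rpl3, which sits at the peptidyl transferase centre, was the member called higher in OVA vs. Saline. Its listed values were 0.000485, 0 and 0.000441 FPKM in Saline, 27.4, 41.1 and 0.0251 in OVA and 0.222, 0.0391, 2.37 and 0.948 in Herb. A Saline level near 0 for a protein that every ribosome holds, together with an OVA library near 0, means that no fold is given. Its call (adjusted p = 0.031) was lost when any one of the 3 Saline libraries or OVA replicate 1 or 2 was left out, with adjusted p from 0.067 to 0.111. Its muscle paralog Rpl3l had at most 0.635 FPKM and was not tested.

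Several large subunit genes alternated between listed zeros and high values. Rpl8, near the peptidyl transferase centre, had listed values of 101, 166 and 133 FPKM in Saline, 0, 27.4 and 1.92 in OVA and 0, 17.8, 61.4 and 19.1 in Herb. Rpl11, a regulator of p53 when free of the ribosome, was listed at 118, 135 and 121 in Saline, 13.5, 0 and 4.32 in OVA and 0, 0, 43.6 and 70.6 in Herb, and Rpl6 at 73.5, 84.0 and 74.9, at 0, 6.54 and 15.1, and at 43.0, 0, 23.4 and 43.9. These genes passed in OVA vs. Saline (adjusted p = 0.0197, 0.0355 and 0.0394), but the calls of Rpl11 and Rpl6 were each lost without any one of 5 and 6 libraries, and that of Rpl8 without any one of 3. After rescaling all 3 calls were lost (adjusted p = 0.07001, 0.118 and 0.134). Rpl9 had listed values of 0, 208 and 182 FPKM in Saline, 39.9, 21.9 and 0 in OVA and 0, 0, 66.6 and 0 in Herb, and Rpl10 at 0, 199 and 0, at 0, 0 and 33.8, and at 69.4, 0, 0 and 0. Both passed in no comparison. Rpl34 was low in all groups, at 1.67, 3.61 and 4.17 FPKM in Saline, 1.97, 2.02 and 3.67 in OVA and 7.39, 4.73, 7.38 and 2.19 in Herb, while its copy Rpl34-ps1 was at 115.8, 189 and 131.9 in Saline, 0, 3.40 and 0 in OVA and 0, 47.9, 0 and 21.7 in Herb. Added together, Rpl34 and Rpl34-ps1 gave 117, 193 and 136 FPKM in Saline, 1.97, 5.43 and 3.67 in OVA and 7.39, 52.6, 7.38 and 23.9 in Herb, with no overlap between the groups. In all, 15 members were under 1 FPKM in one library and over 20 in another.

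The stalk proteins recruit elongation factors to the large subunit. Rplp1 was among the most abundant members, at 329, 399 and 318 FPKM in Saline, 73.1, 137 and 109 in OVA and 244, 238, 181 and 276 in Herb. It fell by 1.74 ± 0.26 on the log2 scale in OVA vs. Saline (SE, adjusted p = 0.000437) and was 1.17 ± 0.24 higher in Herb vs. OVA (adjusted p = 0.00808). After rescaling these differences were -0.59 (adjusted p = 0.0403) and 0.49 (adjusted p = 0.139). Rplp0, the base of the stalk, was at 46.6, 58.4 and 51.0 in Saline, 10.3, 16.4 and 14.5 in OVA and 32.4, 31.0, 24.2 and 40.9 in Herb, a fall of 1.86 ± 0.23 (SE, adjusted p = 0.000185) that was -0.75 as a rescaled log2 difference (adjusted p = 0.0109). Rplp2 changed less, at 164, 187 and 165 FPKM in Saline, 96.1, 102 and 72.5 in OVA and 173, 157, 129 and 208 in Herb, a fall of 0.93 ± 0.22 (SE, adjusted p = 0.00485) that turned to 0.22 higher after rescaling (adjusted p = 0.421). Rpsa, the laminin receptor and a small subunit protein, was under 6 FPKM throughout (0.143 to 1.58 in Saline, 0 to 5.72 in OVA and 0 to 0.331 in Herb) and was not tested.

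Copies were counted as other genes of the annotation, pseudogenes included. A transcript of each had to match at least 80% of the member's coding sequence at 95% identity or more. Of the 82 members with a coding length, 76 had at least 1 such copy, 42 had at least 5 and 17 at least 10. Rpl21 had 57, Rpl7a 32, Rpl29 25, Rps2 23 and Rpl17 22. Members with at least 10 copies had a median mean level of 2.74 FPKM, and 10 of these 17 were listed at 0 somewhere, against medians of 48.0 for the 34 with 1 to 4 copies and 39.2 for the 25 with 5 to 9. The 6 members with no copy had a median of 33.3, and 3 of them were listed at 0 somewhere. Across the 82 genes the Spearman correlation between number of copies and mean level was -0.235, which describes genes that share libraries.

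Shorter members had lower values in OVA relative to Saline than longer ones. Over 55 members above 0 throughout with a coding length of 156 to 1260 bases, the correlation between log2 coding length and the log2 difference in OVA vs. Saline was 0.316 (Pearson) and 0.299 (Spearman). It was 0.0009 and 0.014 in Herb vs. OVA and 0.395 and 0.366 in Herb vs. Saline. These correlations are across genes that share libraries and have no test. Of the members above 0 throughout with a mean of at least 20 FPKM, 17 had coding sequences under 400 bases and 11 of at least 600 bases. The summed FPKM of the former divided by that of the latter was 2.14, 2.20 and 1.97 in Saline, 1.61, 1.504 and 1.62 in OVA and 1.43, 1.51, 1.61 and 1.41 in Herb. Saline lay above both other groups without overlap. Other genes, taken at all levels, had an order of the same direction on the deposited scale. Their median log2 difference in OVA vs. Saline was -1.46 for coding sequences under 300 bases and -0.93 for 600 to 1000 bases. The members' medians were -2.89 for 9 under 300 bases and -2.21 for 19 of 600 to 1000. Among other genes with a mean of at least 20 FPKM the order was flatter, at -2.25 for 35 genes under 300 bases and -2.01 for 99 of 600 to 1000. What lies behind this order was not tested.

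**Figure D5:**
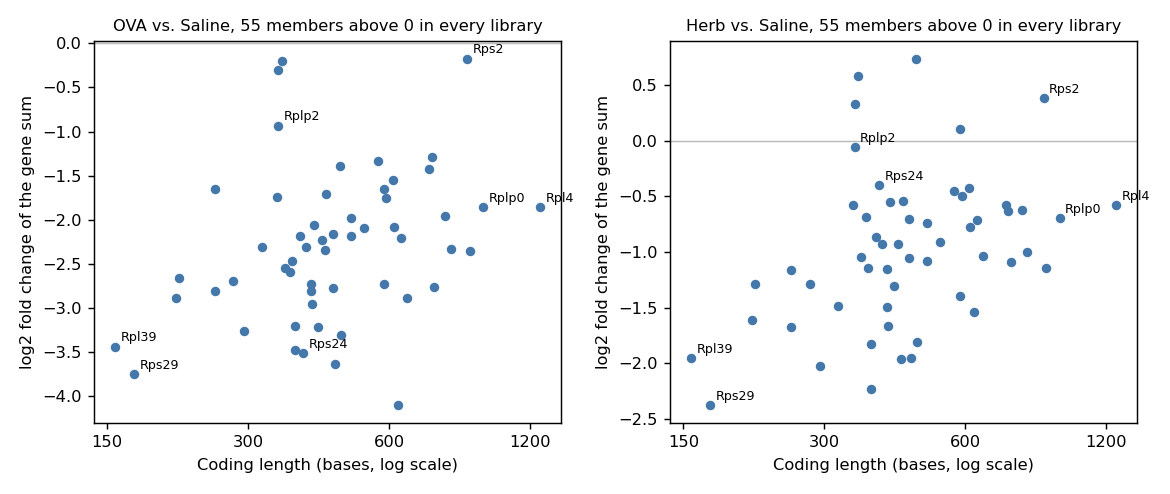
Log2 fold change of the gene sum (vertical axis) against coding length in bases (log scale) for the 55 members above 0 in every library that have a coding length, in OVA vs. Saline on the left and Herb vs. Saline on the right, with 1 point per gene. Shorter genes such as Rpl39 and Rps29 lie lower in both panels (Spearman 0.299 and 0.366).

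Promoter windows from RefSeq, 250 bases before to 50 after the start, were given for 62 members as 74 windows on GRCm38.p6, of 32851 windows in all. The letters CCGGAA, bound by ETS-type factors, were found on either strand in 47.3% of the members' windows and 14.9% of all windows, and in 57.3% of those of mitochondrial ribosomal proteins. The YY1-type letters GCCATC were in 24.3% of the members' windows against 14.1% of all, the Sp1-type GGGCGG in 59.5% against 35.7%, and TATAAA in 9.46% against 13.6%. The pyrimidine letters CTTTC or CTTTT on the gene strand overlapped the annotated start in 3 of 74 windows (4.05%, against 1.20% of all). Within 20 bases of the start, a width chosen after the windows were seen, they began in 23 of 74 (31.1%, against 10.3% of all and 6.67% of mitochondrial windows). A match describes letters and not a bound site. The 8 stretches in which these letters begin at base 1, 2 or 3 of the transcript are shown because they hold the pyrimidine run that this family is known for at or next to the start. This rule leaves out Rpl7a, where the letters begin at base -1 and overlap the start. Each is 60 bases on the gene strand, 40 before the start and 20 from it, with CTTTC and CTTTT in capitals:
Rpl38, chr11:114668540-114668599, plus strand: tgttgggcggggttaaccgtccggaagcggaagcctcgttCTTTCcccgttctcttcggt
Rplp2, chr7:141447611-141447670, plus strand: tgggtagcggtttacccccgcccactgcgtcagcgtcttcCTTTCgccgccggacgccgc
Rps27, chr3:90213629-90213688, minus strand: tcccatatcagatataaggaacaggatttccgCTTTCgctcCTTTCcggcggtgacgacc
Rpl28, chr7:4792925-4792984, plus strand: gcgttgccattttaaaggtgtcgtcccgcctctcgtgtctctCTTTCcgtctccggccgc
Rpl35, chr2:39005112-39005171, minus strand: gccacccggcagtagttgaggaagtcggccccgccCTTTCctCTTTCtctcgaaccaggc
Rps6, chr4:86857348-86857407, minus strand: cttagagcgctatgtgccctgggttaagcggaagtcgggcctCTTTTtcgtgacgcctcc
Rpl12, chr2:32961672-32961731, plus strand: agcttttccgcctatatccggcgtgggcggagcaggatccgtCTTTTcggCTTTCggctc
Rpl35a, chr16:33056442-33056501, plus strand: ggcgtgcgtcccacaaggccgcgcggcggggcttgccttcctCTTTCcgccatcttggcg

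Of these 8 genes 7 were tested, all but Rpl35a. On the deposited scale 6 of them (Rpl38, Rplp2, Rpl28, Rpl35, Rps6 and Rpl12) were lower in OVA vs. Saline. There 59 of 73 members and 57.9% of all genes were lower. These same 6 were higher in Herb vs. OVA, where 51 of 73 members and 44.0% of all genes were higher. Rps27 passed in no comparison. After rescaling, 5 of the 6 were still lower in OVA vs. Saline, where 45 of 73 members and 17.2% of all genes were lower, and Rplp2 turned sign. In Herb vs. OVA none of the 6, and no other member, was higher on that scale.

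Other genes of translation were taken from fixed lists. In OVA vs. Saline, 29 of 31 translation initiation and elongation factors tested were lower (median -1.79), where 57.9% of all genes tested were lower. Of the same 31, 23 were higher in Herb vs. OVA (median 1.07), where 44.0% of all genes were higher. Among 27 ribosome biogenesis genes, which build the subunits in the nucleolus, 17 were lower and 8 higher in these comparisons (medians -0.71 and 0.32). Of 72 mitochondrial ribosomal protein genes, 61 were lower and 45 higher (medians -1.05 and 0.56). After rescaling, the medians in OVA vs. Saline were -0.74 for the translation factors with 16 lower and 1 higher, 0.20 for biogenesis genes with 3 lower and 4 higher, and -0.17 for mitochondrial ribosomal proteins with 19 lower and 5 higher, where 17.2% of all genes were lower. In Herb vs. OVA the rescaled medians were 0.45 for translation factors with 1 higher, 0.12 for mitochondrial ribosomal proteins with 1 higher and -0.17 for biogenesis genes with 0 higher. The members' own rescaled medians were -1.31 in OVA vs. Saline and 0.65 in Herb vs. OVA.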

How the data were processed

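RNA was sequenced from lung tissue of 10 mice (Saline n = 3, OVA n = 3, Herb n = 4). Per the submitters' processing notes, cutadapt 1.10, HISAT2, StringTie 1.3.3b and edgeR 3.16.5 were used with mm10, and the authors deposited FPKM for each transcript row. The labels name a TruSeq RNA kit after Trizol extraction and the methods a stranded kit, so strandedness was not settled here. Columns of the authors' own comparisons were not used. FPKM rows were summed per gene symbol, and log2(FPKM + 1) of genes with a mean of at least 1 was fitted with limma 3.58.1 (trend, 3 group means) under R 4.3.3, with Benjamini-Hochberg adjustment over 11205 genes. Differences of low genes are understated by the added 1. The fit was also run on simulated data with independent noise and few changed genes, in both directions. That setting holds no shift shared by most genes, so it does not test the choice of scale. The members and gene lists were chosen with earlier results of these data known. Named genes are all rows of Rps24, the 5 highest gene sums, the 3 highest and 3 lowest differences per comparison, the 6 highest genes with a listed 0, the paralog pairs, the stalk and Rpsa, and a few results that the rule names are not reported here. Coordinates are GRCm38.p6 (GENCODE and RefSeq), and no read depth per value is known beyond the estimate. Alternatives were a rescaling to the 75th percentile, a common protein-coding sum, quantile normalization, a pseudocount of 0.1, other filters, a fit without trend, fits of 2 groups, a replicate block and leaving out each library.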

Additional observations from a re-analysis of the deposited data

Results flagged for a closer look

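Within the 4 Herb mice, 1 library stood apart from the other 3 for 5 of 30 values checked with Dixon's gap ratio. The rate of about 1 in 20 groups at this threshold holds for independent, normally distributed values. These values share libraries, and several genes were named for listed zeros or extreme differences, so no excess over that rate can be read. Where 3 of the 4 values are 0, as for Rpl9 and Rpl10, the ratio is 1.0 by construction. Herb replicate 3 was low for Rpl7 (93.7 FPKM against 153 to 165, ratio 0.8291), Rps21 (5.997 against 132 to 142, ratio 0.928) and Rpl22l1 (2.25 against 11.7 to 12.5, ratio 0.926). It was high for Rpl9, at 66.6 FPKM where the other 3 were listed at 0 (ratio 1.0). Herb replicate 1 was high for Rpl10, at 69.4 FPKM where the other 3 were listed at 0 (ratio 1.0). Herb replicate 3 was also the lowest Herb library for 48 of the 56 members above 0 throughout.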

How the results depend on the processing

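The direction of the members' medians held under every alternative run. Under the 75th percentile, a common protein-coding sum and quantile normalization in that order, the medians were -1.31, -0.96 and -0.80 in OVA vs. Saline, 0.65, 0.48 and 0.41 in Herb vs. OVA and -0.61, -0.41 and -0.32 in Herb vs. Saline. Gene sums called were 35 (common sum) and 28 (quantile) for OVA vs. Saline, 0, 5 and 0 for Herb vs. OVA and 14, 12 and 8 for Herb vs. Saline. Of all 11205 genes tested, 987 (common sum) and 1917 (quantile) were lower in OVA vs. Saline. In Herb vs. OVA 39, 70 and 56 of all genes were higher, and in Herb vs. Saline 573, 320 and 382 were lower. Member rows called were 35 and 36, then 0, 0 and 0, then 11, 11 and 7, and 34 rows in Herb vs. Saline with a minimum mean of 5 FPKM. Counts over all rows under these settings are not given here, so no excess of member rows can be read. Against all RefSeq rows the share of ribosomal protein genes was 4.34%, 1.52% and 2.89% in Saline, OVA and Herb, and against all rows 1.098%, 0.121% and 0.413%. Leaving out each library gave 55 to 59, 44 to 54 and 11 to 39 gene sums, 56 to 62, 2 to 54 and 1 to 25 rows, medians of -2.48 to -2.14, 1.00 to 1.48 and -1.13 to -0.88, and shares of 5.23% to 5.66%, 2.70% to 2.9997% and 3.88% to 4.25%. Counts over all genes and rows with a library left out are not given here. The cause of the changes between settings was not tested.

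The labels do not state that replicate numbers pair mice. Correlations of same-numbered mice were -0.0087 to 0.0953, within the -0.170 to 0.227 of different-numbered mice. With so few mice this check does not settle whether they were paired. With a replicate block, 21 gene sums and 3 rows of members were lower in Herb vs. Saline. Counts over all genes and rows with this block are not given here. The log2 difference with the block was -0.26 for Rpl11 and 0.34 for Rpl10 in Herb vs. OVA and 0.11 for Rps24 in Herb vs. Saline.

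Of 1356 alternatives for single genes, 1129 kept direction and side of the threshold, 170 lost it, 9 gained it and 48 changed sign. In OVA vs. Saline, the 75th percentile, common sum and quantile values were 0.22, 0.60 and 0.73 for Rplp2, 0.64, 0.92 and 0.49 for Rpl34 and 0.66, 0.93 and 0.48 for Rps2, and with the common sum 0.0097 for Rpl7l1 and 0.12 for Rps4l. In Herb vs. OVA they were -0.19, -0.38 and -0.62 for Rps27, and with the common sum -0.10 for Rps2, -0.049 for Rpl7l1 and -0.12 for Rps4l. In Herb vs. Saline they were 0.066, 0.26 and 0.38 for Rps24 and 0.41, 0.61 and 0.81 for Rplp2. There the common sum and quantile values were 0.10 and 0.32 for Rplp1 and 0.045 and 0.20 for Rps4x, with a common sum value of 0.00055 for Rps4l and a quantile value of 0.17 for Rplp0. Leaving out each library, Rpl10 ranged from -2.55 to 1.71 in OVA vs. Saline, -1.71 to 1.53 in Herb vs. OVA and -2.55 to 1.53 in Herb vs. Saline. Rps27 ranged from -0.0453 to 1.91 in Herb vs. OVA and -3.44 to 0.26 in Herb vs. Saline, Rpl11 from -0.26 to 1.79 in Herb vs. OVA, and in Herb vs. Saline Rps24 from -0.91 to 0.11 and Rplp2 from -0.18 to 0.053.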
